A study of Mus musculus with 3 samples.

Results

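The 32 genes described here carry glucose into the cell, break it down to lactate, or sense and answer low oxygen. They were taken by symbol from the gene list of the count matrix, and all 32 were found among the 32247 symbols. The counts come from whole mouse uterus at pregnancy day 7.5, dissociated with trypsin and read in droplets with 3′ chemistry, so that each unique molecular identifier (UMI) counts 1 captured transcript. The labels give no genotype and no strain for this library, and no count of the animals in it. They say that females were kept with female littermates until 8 weeks of age and then mated. The series has 2 other single-cell samples of the same day, Prl8a2icre/+ Sun1-GFPLsL/+ and Sun1-GFPLsL/+, which are not analysed here.

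Glycolysis turns glucose into pyruvate in the cytosol. Glucose transporters let the sugar in, hexokinase and phosphofructokinase commit it to the pathway, and lactate dehydrogenase with the monocarboxylate transporters disposes of pyruvate as lactate. When oxygen is short, prolyl hydroxylases no longer mark hypoxia-inducible factor for destruction by the von Hippel-Lindau protein, and the factor, a HIF alpha subunit joined to Arnt, binds a short DNA motif and raises the transcription of many genes of this pathway. Around implantation the uterine stroma turns into decidua, a tissue known for high glucose use, and natural killer (NK) cells expand within it.

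The library held 2775 barcodes, of which 1812 were kept as cells, with 14622717 UMIs and a median of 4509.5 UMIs per cell. They fell into 21 clusters, and 20 of these were named after marker genes as 10 classes, none of whose markers is among the 32 genes. The classes are called by the cell type whose markers they carry, as decidual-like stroma (149 cells), undifferentiated-like stroma (415), epithelium-like (373), mesothelium-like (88), endothelium-like (67), pericyte- or smooth muscle-like (35), NK-like (314), T-like (43), B-like (24) and phagocyte-like cells (269), and the last cluster of 35 cells stayed unnamed. The 32 genes took 40910 UMIs, or 0.280% of the total. Levels are counts per 1000000 UMIs of the group (CPM), and every interval is an exact 95% interval that covers counting error only. There is 1 library and no replicate, so differences are described without a test or a p-value, and fewer transcripts per cell cannot be told apart from a larger total of other transcripts. RNA free in the droplets was not measured, and its part in levels of a few CPM was not tested.

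Hypoxia-inducible factor binds a core of 5 letters, ACGTG or, in the other common form, GCGTG. The stretches from 250 bases before to 50 bases after the transcription start sites, taken from RefSeq on GRCm38.p6, were matched for 30 of the 32 genes by symbol. ACGTG, sought on both strands, was present in 19 of these 30 genes (63.3%) and in 21.8% of all 27025 symbols with such a stretch. A gene can have several start sites. Counted per stretch, ACGTG was in 51.2% of 43 for the 30 genes and in 19.6% of 32851 for all symbols. GCGTG was present in 60.0% of the 30 and in 35.2% of all. The 30 genes had a median of 22.5 CG pairs in the stretch and all symbols a median of 8, and base composition was not matched. 5 stretches are printed because the results below turn on their genes. Slc2a1 and Hk2 had the widest ratios of decidual- over undifferentiated-like stroma among the genes measured. Of the named classes, Pgk1 and Ldha stood highest in NK-like cells and Ldhb in epithelium-like cells. Capitals mark ACGTG or its reverse complement CACGT, and overlapping matches on both strands show as CACGTG. All are written 5′ to 3′ on the strand of the gene.
Slc2a1, chr4:119108495-119108794, plus strand: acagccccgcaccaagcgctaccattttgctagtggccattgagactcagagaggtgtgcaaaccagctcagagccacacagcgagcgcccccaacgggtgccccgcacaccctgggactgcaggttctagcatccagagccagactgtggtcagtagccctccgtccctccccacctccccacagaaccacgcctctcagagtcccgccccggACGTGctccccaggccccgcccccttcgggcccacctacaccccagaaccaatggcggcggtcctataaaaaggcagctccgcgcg
Hk2, chr6:82774405-82774704, minus strand: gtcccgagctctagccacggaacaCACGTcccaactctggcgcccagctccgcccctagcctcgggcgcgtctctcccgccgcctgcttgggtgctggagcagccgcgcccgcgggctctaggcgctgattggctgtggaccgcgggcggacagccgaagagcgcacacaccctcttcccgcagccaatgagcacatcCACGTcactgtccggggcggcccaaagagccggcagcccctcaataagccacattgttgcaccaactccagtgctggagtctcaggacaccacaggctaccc
Pgk1, chrX:106186850-106187149, plus strand: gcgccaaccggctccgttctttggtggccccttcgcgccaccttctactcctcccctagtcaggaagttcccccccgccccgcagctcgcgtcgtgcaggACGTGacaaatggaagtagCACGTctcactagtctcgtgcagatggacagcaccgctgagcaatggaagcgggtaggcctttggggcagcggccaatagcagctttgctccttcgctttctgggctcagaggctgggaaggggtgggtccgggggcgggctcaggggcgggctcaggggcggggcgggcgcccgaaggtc
Ldha, chr7:46845554-46845853, plus strand: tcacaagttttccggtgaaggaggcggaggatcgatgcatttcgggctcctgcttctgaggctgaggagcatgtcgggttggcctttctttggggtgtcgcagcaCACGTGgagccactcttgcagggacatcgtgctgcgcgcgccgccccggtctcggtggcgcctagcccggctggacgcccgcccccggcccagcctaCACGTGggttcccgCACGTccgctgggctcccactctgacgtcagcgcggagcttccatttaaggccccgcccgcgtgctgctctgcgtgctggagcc
Ldhb, chr6:142507908-142508207, minus strand: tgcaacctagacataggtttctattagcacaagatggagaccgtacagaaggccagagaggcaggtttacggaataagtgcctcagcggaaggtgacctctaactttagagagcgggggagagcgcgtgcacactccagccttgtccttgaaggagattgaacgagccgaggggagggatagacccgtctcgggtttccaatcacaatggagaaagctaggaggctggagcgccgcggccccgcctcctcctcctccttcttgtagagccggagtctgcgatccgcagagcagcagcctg
Ldha held 5 matches of ACGTG in this stretch, counting both strands, Hk2 and Pgk1 held 2 each, Slc2a1 held 1 and Ldhb held none. Of GCGTG, not in capitals, Ldha held 2 matches, Slc2a1 and Ldhb 1 each, and Hk2 and Pgk1 none. A second Ldha start site had no ACGTG and 2 GCGTG. A match is a description of the letters and does not show that the factor binds there.

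The first comparison asks which uterine cells carry the pathway. NK-like cells had the most transcripts of the 17 enzyme genes from hexokinase to lactate dehydrogenase, with a summed level of 2923 CPM (2869 to 2978). Epithelium-like cells had 1690.3 CPM (1655 to 1726), phagocyte-like cells 1634 (1564 to 1707), pericyte-like cells 1595 (1443 to 1757) and T-like cells 1570 (1351 to 1814), and the intervals of these 4 neighbours in the order overlapped. Endothelium-like cells had 1473 CPM, decidual-like stroma 1419.9, mesothelium-like cells 1270 (1172 to 1373), B-like cells 833 (586 to 1148) and undifferentiated-like stroma 705 (664 to 749). As a class NK-like cells stood clear of every other named class, but 176 of the 314 cells form a cluster with 1466 CPM (1382 to 1554), below epithelium- and phagocyte-like cells, and the class value is carried by the other 138 cells, at 3298 CPM. Undifferentiated-like stroma was lowest, with an interval that overlapped that of B-like cells alone. The per-cell view gave the same ends of the order. Among cells with at least 2000 UMIs the median share of a cell's UMIs from these enzymes was 0.188% in NK-like cells and 0.0642% in undifferentiated-like stroma. The order depends on the total. Ribosomal protein genes took 23.7% of UMIs in NK-like cells, the largest share of the named classes. With ribosomal protein UMIs as the total, pericyte-, mesothelium- and endothelium-like cells stood above NK-like cells, and B-like cells were lowest.

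**Figure D1:**
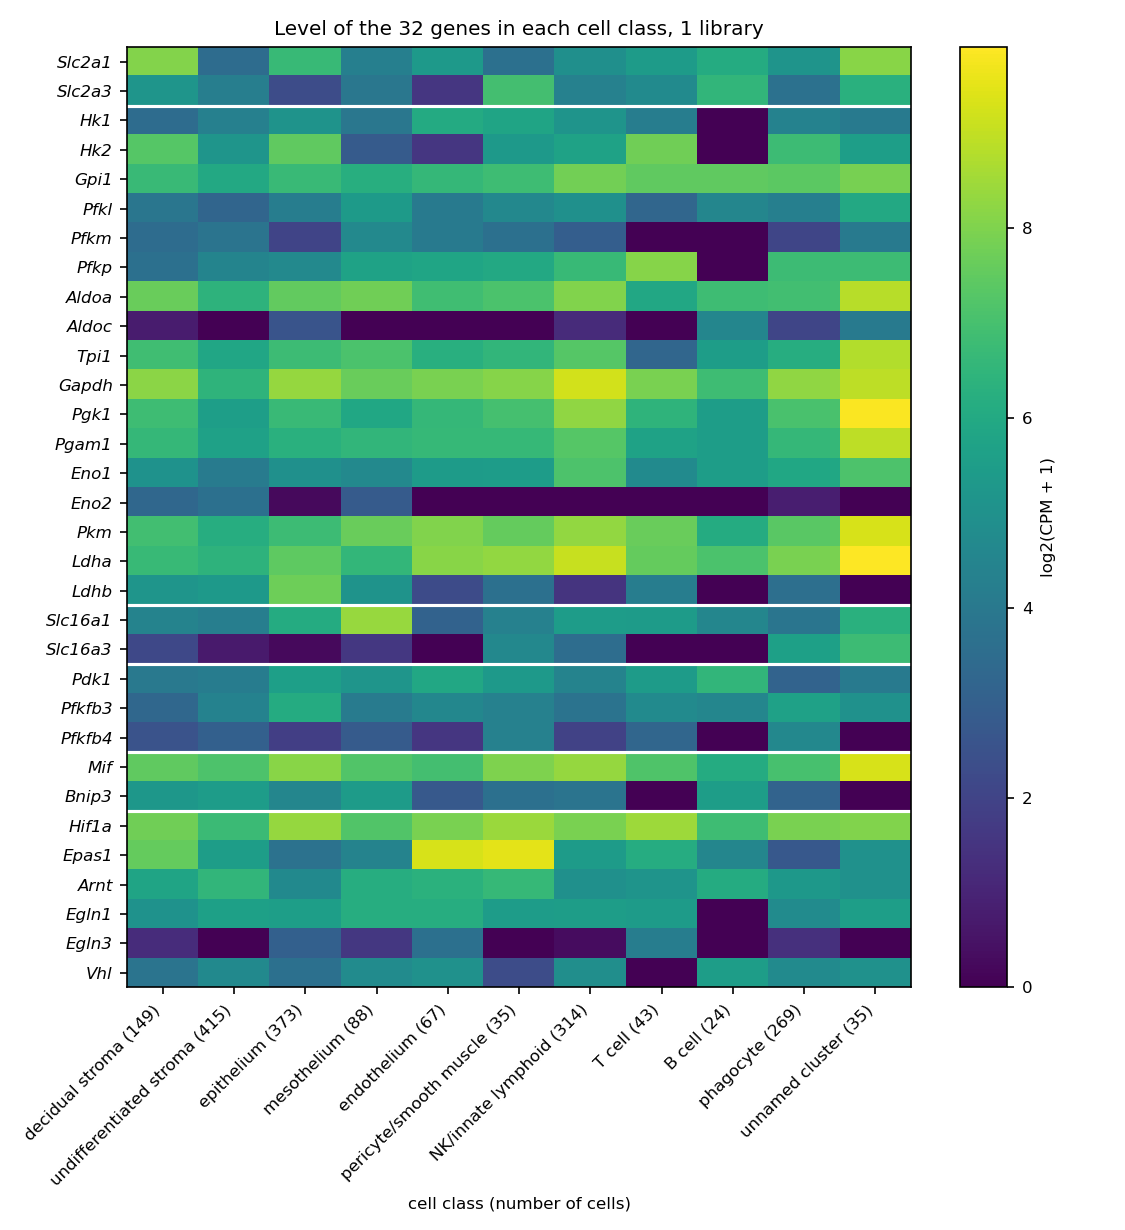
Levels of the 32 genes (rows, in order of role from glucose transport to oxygen sensing) in the 10 named classes and the unnamed cluster (columns, with cell numbers), as log2 of CPM plus 1. Of the named classes NK-like cells are highest for Gapdh, Pgk1, Pgam1, Eno1, Pkm and Ldha, the unnamed cluster is higher still for Pgk1, Pkm and Ldha, Ldhb stands out in epithelium-like cells, Slc16a1 in mesothelium-like cells and Epas1 in endothelium- and pericyte-like cells.

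Each of the 32 genes has a class where its level was highest. NK-like cells were highest for 10 genes, T-like, B-like and mesothelium-like cells for 4 each, pericyte-like cells for 3, epithelium- and phagocyte-like cells for 2 each, and decidual-like stroma, endothelium-like cells and undifferentiated-like stroma for 1 each. For 10 of the 32 the interval of the highest class lay clear of that of the second. How often each class is highest over all genes is not given. These counts therefore describe the 32 genes and do not set them apart from other genes. The 4 highest levels in B-like cells (Aldoc, Pdk1, Bnip3 and Vhl) rest on 1 to 4 UMIs each and were not clear of the second class.

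Transcripts of the glucose transporters differed by class in both level and form. Slc2a1, the glucose transporter GLUT1 that serves barriers and fast-growing tissues, stood at 271 CPM (244 to 299) in decidual-like stroma. It reached 101 CPM (92.2 to 110) in epithelium-like cells, and in the other 8 named classes it lay between 10.5 CPM in undifferentiated-like stroma and 67.5 CPM in B-like cells, where 3 UMIs gave the value. Decidual-like stroma was thus clear of every other named class. Slc2a3, the high-affinity transporter GLUT3, was highest in pericyte-like cells at 122 CPM (82.7 to 173) and lowest in endothelium-like cells at 1.93 CPM. As a share of the UMIs of both transporters, Slc2a3 made up 91.2% (76.3 to 98.1) in pericyte-like cells, 62.8% (46.7 to 77.0) in undifferentiated-like stroma, 11.3% (8.5 to 14.7) in decidual-like stroma and 3.7% (2.3 to 5.7) in epithelium-like cells.

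The hexokinases, which trap glucose as glucose 6-phosphate, split in a similar way. Hk2, the inducible form, stood at 214 CPM (139 to 317) in T-like cells, 178 (166 to 190) in epithelium-like cells and 157 (137 to 179) in decidual-like stroma, with overlapping intervals, and at 1.93 CPM in endothelium-like cells. Its share of Hk1 and Hk2 UMIs was 93.8% (89.98 to 96.5) in decidual-like stroma and 2.9% (0.1 to 14.9) in endothelium-like cells, where Hk1, the constitutive form, had 65.6 CPM, its highest level. Among the phosphofructokinases, which set the pace of the pathway, Pfkp was highest in T-like cells at 275 CPM (188 to 387), clear of the 111 CPM of phagocyte-like cells. Pfkp made up 97.0% (84.2 to 99.9) of phosphofructokinase UMIs in T-like cells, 83.6% (77.1 to 88.9) in phagocyte-like cells and 32.7% (20.3 to 47.1) in decidual-like stroma. Pfkl and Pfkm, the other two forms, were each highest in mesothelium-like cells, at 40.9 and 24.5 CPM.

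Apart from Ldhb and Eno2, the enzymes of the lower steps were highest, among the named classes, in NK-like cells. Gapdh, which makes the NADH of the pathway, stood at 604 CPM in NK-like cells, 322 in the next class and 87.0 in undifferentiated-like stroma. Pgk1, which yields the first ATP, stood at 304 CPM in NK-like cells and 133 in phagocyte-like cells, the next in order. Eno1, the enolase of most tissues, stood at 139 CPM (127 to 152) and in phagocyte-like cells at 58.5 (45.8 to 73.5). Pgam1 was likewise clear of the second class, at 156 against 98.4 CPM. These are values of the class as a whole. In its cluster of 176 cells Gapdh, Pgk1 and Pgam1 stood at 214, 101 and 56.4 CPM, below the class ranked second, and Eno1 at 62.8 CPM, above it. Aldoa, Tpi1, Pkm and Gpi1 were also highest in NK-like cells, at 263, 157, 313 and 220.5 CPM, but their intervals overlapped those of the class ranked second. Mif, a cytokine whose gene answers to hypoxia, was highest there too, at 328 CPM against 282 CPM in epithelium-like cells, and these intervals did not overlap. Aldoc and Eno2, the forms best known from brain, had 37 and 36 UMIs in all cells together.

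Set against all other cells, and counting a gene as higher or lower where both sides had at least 50 UMIs in sum, the levels differed by at least 2-fold and the interval of the ratio excluded 1, NK-like cells were higher for 7 of the 30 genes measured and lower for 7. Over all genes measured, 11.7% were higher and 34.2% lower in NK-like cells. The 7 higher genes were all enzymes, led by Eno1 (4.20-fold, 3.67 to 4.82) and Ldha (3.21-fold, 3.01 to 3.42), and the lower ones were led by Ldhb.

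The forms of lactate dehydrogenase differed between classes. Ldha, the form that favours lactate production, stood at 539 CPM (516 to 563) in NK-like cells, 318 (253 to 395) in pericyte-like and 286 (242 to 336) in endothelium-like cells, and at 84.4 (70.5 to 100.3) in undifferentiated-like stroma. Ldhb, the form known for using lactate, stood at 212 CPM (199.96 to 225) in epithelium-like cells, at 39.2 CPM in undifferentiated-like stroma, the next in order, and at 1.84 CPM (0.738 to 3.79) in NK-like cells. Ldhb thus made up 55.2% (53.0 to 57.4) of the UMIs of the pair in epithelium-like cells, 31.7% (25.2 to 38.9) in undifferentiated-like stroma and 0.3% (0.1 to 0.7) in NK-like cells. The larger share of Ldhb did not hold in the epithelium-like cluster rich in Prss28 and Prss29, described below. Ldhb had 34 UMIs and Ldha 74 there, against 1050 and 806 in the other epithelium-like clusters. Set against all other cells, epithelium-like cells were higher for 5 of 30 genes and lower for 9, where all genes gave 11.4% and 27.8%. Ldhb led the 5 at 13.1-fold (11.0 to 15.5). The others were Pfkfb3 (3.43-fold), Pdk1 (2.20-fold), Hk2 (2.58-fold) and Egln3 (4.93-fold, on 37 UMIs). Pfkfb3 makes the activator of phosphofructokinase, and the product of Pdk1 switches pyruvate dehydrogenase off.

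**Figure D2:**
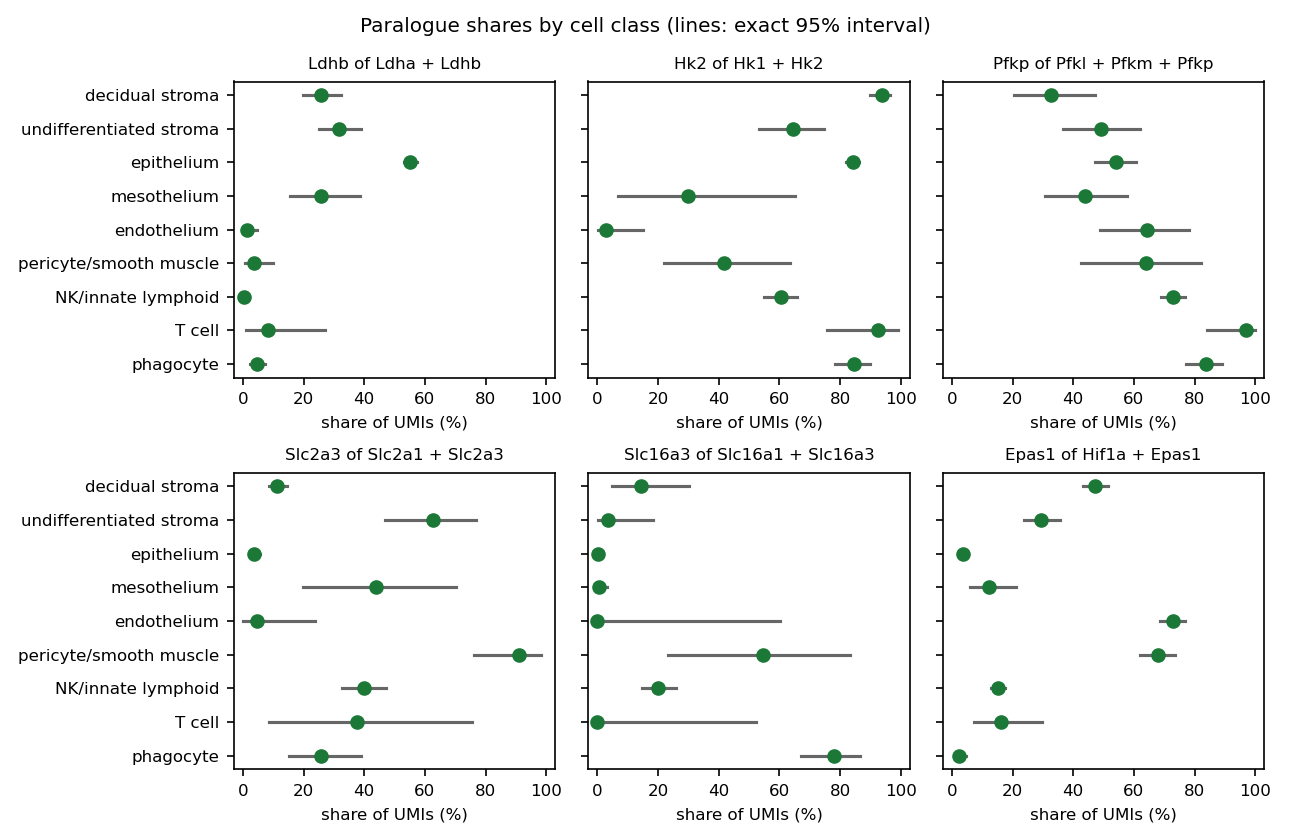
Share of 1 paralogue in the UMIs of its family, in percent, for 6 families and 9 named classes (the 24 B-like cells are left out), with exact 95% intervals as lines. Ldhb is the larger share in epithelium-like cells and near 0 in NK-like cells, Hk2 is near 3% in endothelium-like cells, and Epas1 exceeds 60% in endothelium- and pericyte-like cells.

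The carriers that move lactate across the membrane had different leading classes. Slc16a1, the widely used carrier MCT1, stood at 335 CPM (286 to 391) in mesothelium-like cells, 68.0 (61.0 to 75.5) in epithelium-like cells and 7.72 in endothelium-like cells, and mesothelium-like cells were clear of all others. Slc16a3, the carrier MCT4 known for lactate export, stood at 48.1 CPM (36.7 to 61.9) in phagocyte-like cells, on 60 UMIs, with an interval that overlapped that of pericyte-like cells (23.6 CPM, 8.65 to 51.3). It stood at 10.8 CPM in NK-like cells, on 41 UMIs, and at 0.196 CPM in epithelium-like cells, on 1 UMI. Its share of the pair was 77.9% (67.02 to 86.6) in phagocyte-like cells and 0.6% (0.0 to 3.3) in mesothelium-like cells. Pfkfb4 was also highest in phagocyte-like cells, at 24.0 CPM, not clear of the 19.6 CPM of pericyte-like cells.

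Of the oxygen-sensing genes, Hif1a and Arnt differed by 3.30-fold and 3.88-fold between the highest and lowest class, and Epas1 by 129-fold. Hif1a, the broadly used alpha subunit, ranged only from 107 CPM (90.9 to 124) in undifferentiated-like stroma to 352 CPM (252 to 477) in T-like cells. Epas1, which encodes HIF-2 alpha, an alpha subunit known from vessels, stood at 723 CPM (622 to 835) in pericyte-like and 643 CPM (576 to 716) in endothelium-like cells, with overlapping intervals, then at 191 CPM (169 to 215) in decidual-like stroma, and at 5.61 CPM in phagocyte-like cells. Its share of the pair was 72.9% (68.5 to 76.9) in endothelium-like cells, 47.2% (43.1 to 51.3) in decidual-like stroma and 3.7% (2.8 to 4.7) in epithelium-like cells. Arnt, the common partner, lay between 25.3 CPM in epithelium-like cells and 98.2 CPM in pericyte-like cells. Egln1, the main oxygen sensor, stood at 71.6 CPM in mesothelium-like and 71.4 CPM in endothelium-like cells, the 2 highest. Egln3, a prolyl hydroxylase that is itself hypoxia-inducible, had 51 UMIs in all, 37 of them in epithelium-like cells. Vhl, which targets the alpha subunits for decay, stood between 3.93 and 45 CPM in the 9 named classes with a UMI. Bnip3, a mitophagy gene induced by hypoxia, stood at 43.2 CPM in undifferentiated-like stroma and 37.4 in decidual-like stroma, against 5.79 CPM in endothelium-like cells.

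The next comparison asks how the genes differ between decidual- and undifferentiated-like stroma of this 1 library. In decidual-like stroma 8 of the 21 genes measured were higher than in undifferentiated-like stroma and none was lower, while over all 7450 genes measured 8.77% were higher and 18.4% lower. The median log2 ratio was 0.93 for the 21 genes and -0.31 for all genes. The 17 enzymes together were 2.01-fold higher (1.87 to 2.17). 1 of 3 membrane transporters measured was higher, as were 5 of 11 enzymes and 2 of 5 oxygen-sensing genes. Mif and Bnip3 were neither higher nor lower by this rule. The line between the 2 stromal classes depends on the clustering. At resolution 2 it gave 438 decidual-like cells and 5 genes higher, against 149 cells and 8 genes here. With doublets kept it gave 415 such cells and 6 genes higher. Shares over all genes are not given for these alternatives.

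Slc2a1 showed by far the widest gap, with 391 UMIs (271 CPM) in decidual-like against 16 UMIs (10.5 CPM) in undifferentiated-like stroma, a ratio of 25.8 (15.7 to 45.7). Hk2 stood at 157 against 34.7 CPM, a ratio of 4.53 (3.35 to 6.23). Genes of glucose entry and its first phosphorylation thus held 2 of the 3 widest gaps among the genes measured. Epas1 stood at 191 against 44.5 CPM, a ratio of 4.29. Gapdh (291 against 87.0 CPM, 3.34-fold), Pgk1 (112 against 45.8, 2.45-fold), Aldoa (197 against 83.7, 2.36-fold), Tpi1 (116 against 56.9, 2.04-fold) and Hif1a (214 against 107, 2.01-fold) made up the rest. Tpi1 and Hif1a sat at the limit and fell under 2-fold when ribosomal protein UMIs were the total, at 1.74 and 1.71. The last enzymes of the path did not reach 2-fold. Ldha stood at 102 CPM against 84.4 CPM, a ratio of 1.21 (0.95 to 1.54), and Ldhb at 35.3 against 39.2 CPM, a ratio of 0.90 (0.61 to 1.33).

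Both decidual-like clusters lay above both undifferentiated-like clusters for 7 of the 21 genes (33.3%), and for 10.9% of all genes measured. Both lay below for 3 of the 21, Egln1, Vhl and Arnt (14.3%), and for 41.2% of all genes. The 2 decidual-like clusters were themselves unlike. They were told apart by Dio3, Bmp2 and Wnt4, genes known from the inner decidua, whose sum was 1485 CPM in the rich cluster (77 cells) and 65.2 CPM in the poor cluster (72 cells). Taken alone against undifferentiated-like stroma, the rich cluster was higher for 10 of 21 genes and lower for none, with 11% of all genes higher and 22.3% lower. The poor cluster alone was higher for 2 of 17 genes and lower for 1, with 4.08% of all genes higher and 20.8% lower. Those 2 were Slc2a1, at 206 CPM (19.7-fold, 11.5 to 35.9), and Hif1a, at 308 CPM (2.89-fold, 2.29 to 3.64), and the lower gene was Mif, at 58.6 against 139 CPM. The enzymes together stood at 671 CPM (598 to 750) in the poor cluster and 705 CPM in undifferentiated-like stroma, a ratio of 0.952. The higher enzyme level of the class thus came from the rich cluster, at 1770.1 CPM (1688 to 1855).

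**Figure D3:**
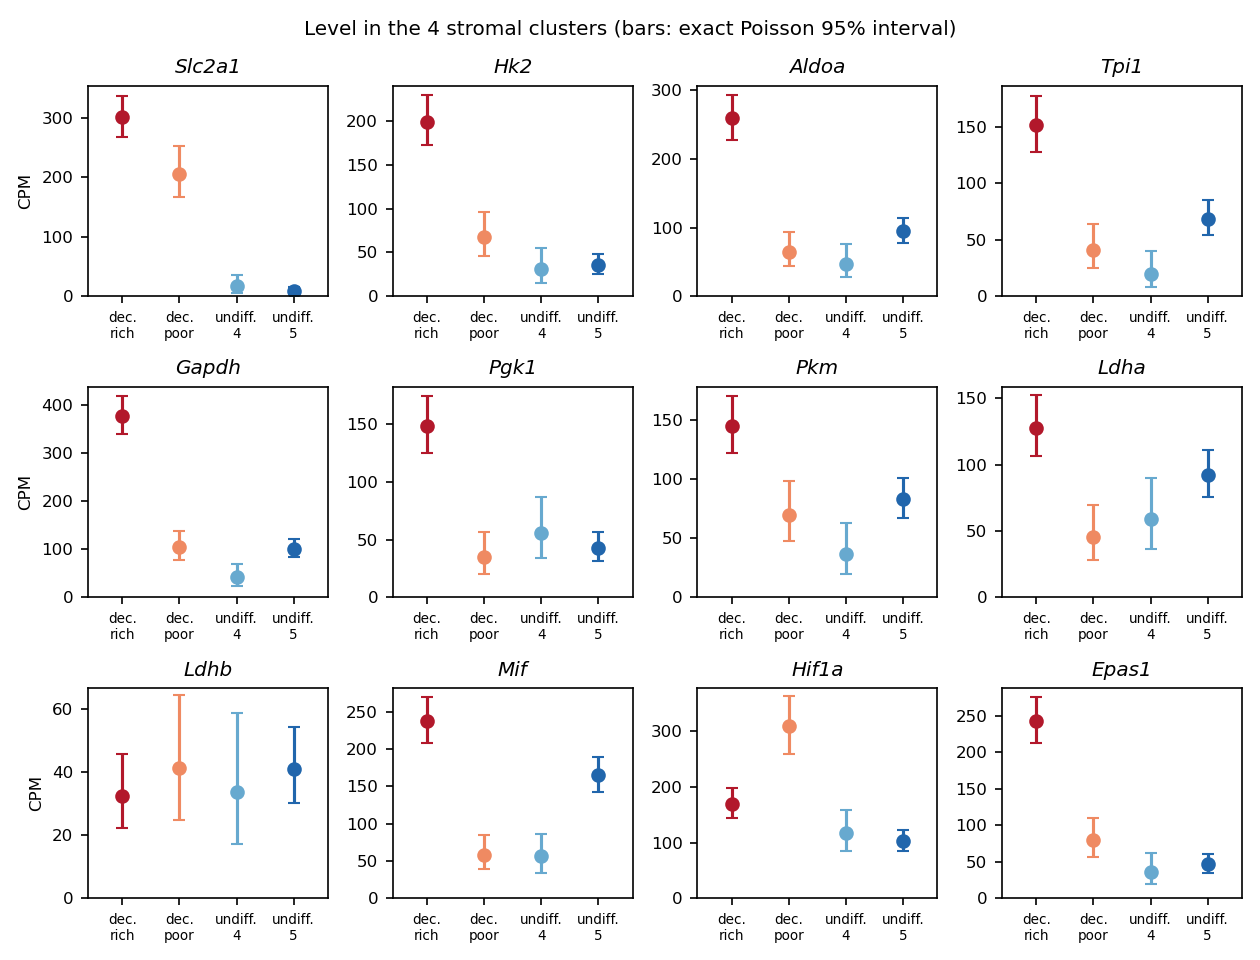
CPM of 12 genes in the decidual-like (dec.) clusters rich and poor in Dio3, Bmp2 and Wnt4 and in undifferentiated-like (undiff.) clusters 4 and 5, each panel with its own scale from 0, and bars for exact Poisson 95% intervals. Slc2a1 and Hif1a are higher in both decidual-like clusters than in both undifferentiated-like ones, while Aldoa, Tpi1, Gapdh, Pgk1 and Mif are high in the rich cluster and within or below the undifferentiated-like range in the poor cluster, apart from Gapdh at 104 against 101 CPM.

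Between the decidual-like clusters directly, the rich one was higher for 10 of 17 genes and lower for none, where all genes gave 21.5% higher and 6.79% lower. The widest ratios were those of Pgk1, at 148 against 34.7 CPM (4.27-fold, 2.54 to 7.66), Mif, at 238 against 58.6 CPM (4.05-fold, 2.71 to 6.28), Aldoa, at 259 against 65.2 CPM (3.97-fold), Tpi1, at 151 against 41.3 CPM (3.67-fold), and Gapdh, at 378 against 104 CPM (3.62-fold). Pgam1, Epas1, Hk2, Ldha and Pkm were higher by 2.08-fold to 3.14-fold. Slc2a1 stood closer, at 301 against 206 CPM, a ratio of 1.46 (1.15 to 1.86). Hif1a went the other way, at 170 CPM in the rich and 308 CPM in the poor cluster, a ratio of 0.55 (0.44 to 0.69) that missed the 2-fold limit. Epas1 made up 58.9% (53.9 to 63.7) of the alpha subunit UMIs in the rich cluster and 20.7% (14.99 to 27.3) in the poor one, and Ldhb 20.3% (14.3 to 27.4) and 47.5% (31.5 to 63.9) of its pair.

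Other properties moved with these stromal values. Malat1, an RNA kept in the nucleus, stood at 141568 CPM in the poor and 44817 CPM in the rich cluster, and at 88394 CPM in undifferentiated-like stroma, and the median mitochondrial share was 13.7%, 9.83% and 4.28% of UMIs in the same order. Ribosomal protein genes took 8.18%, 14.7% and 10.8% of UMIs. When the ribosomal protein UMIs replaced all UMIs as the total, the rich cluster had 5 genes higher and 5 lower than the poor one. The enzyme ratio fell from 2.64 to 1.47. The share over all genes is not given for this total, so these counts have no background. Of 9 trophoblast markers 7 were at 0 in the rich cluster, and their sum was 321 CPM there, 15.2 CPM in the poor cluster and 67.4 CPM in undifferentiated-like stroma. Gata3 gave 318 of the 321 CPM. Mitosis genes summed to 447 CPM in the rich cluster and 49.9 CPM in the poor one. The part of each in the differences was not tested.

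Neighbouring routes of sugar use, from lists of genes outside the 32, gave mixed counts between decidual- and undifferentiated-like stroma. Of 7 pentose phosphate genes, which make NADPH and ribose, 4 were higher, led by Taldo1 (102 against 32.7 CPM, 3.13-fold) and G6pdx (36.0 against 13.1, 2.75-fold), and Rpe was lower (46.4 against 124 CPM). The glucose transporter gene Slc2a12 was higher (174 against 28.8 CPM, 6.06-fold), as was Pcx, whose product turns pyruvate into oxaloacetate (47.7 against 6.54, 7.30-fold). Pdp1, whose product switches pyruvate dehydrogenase on, was lower (3.46 against 41.9 CPM). Of 15 other hypoxia-inducible genes measured 1, Gys1, was higher and 4 were lower, Kdm3a and Plod1 the most, at 13.1 against 43.8 and 30.4 against 83.1 CPM. Of 9 other regulators of the factor 1, Elob, was higher and 1, Sirt1, was lower. All 3 mitosis genes measured were higher. Of the 11 genes of the immediate early list, which answer to stress and handling, 10 were lower. The list also holds the heat shock genes Hspa1a and Hspa1b.

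Within NK-like cells, clusters rich in the granzymes Gzmd, Gzme, Gzmf and Gzmg (138 cells), a mark of mature decidual NK cells, were set against the cluster poor in them (176 cells). The rich clusters had 10 of the 24 genes measured higher and 4 lower, against 15.4% and 13% of all genes. The 17 enzymes together stood at 3298 CPM (3234 to 3364) against 1466 CPM (1382 to 1554), a ratio of 2.25. Of 13 enzymes measured 8 were higher and 1 lower. Pgk1 stood at 357 against 101 CPM (3.52-fold, 2.80 to 4.49), Gapdh at 704 against 214 CPM (3.29-fold), Pgam1 at 181 against 56.4 CPM (3.21-fold) and Pkm at 361 against 128 CPM (2.82-fold). Tpi1, Mif, Eno1, Ldha and Aldoa were higher by 2.16-fold to 2.60-fold, and Epas1 was higher at 51.2 against 10.3 CPM (4.99-fold, 2.47 to 11.8), the low side being 8 UMIs.

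Slc2a1 and Hk2, which act at glucose entry and its first phosphorylation, were lower in the same clusters. Slc2a1 stood at 22.1 CPM in the rich and 57.7 CPM in the poor clusters, 2.61-fold lower (1.75 to 3.86), and Hk2 at 40.9 against 93.5 CPM, 2.29-fold lower (1.69 to 3.08). The other genes measured at these early steps were not called, with ratios of 0.61 for Slc2a3, 1.48 for Hk1, 1.37 (1.14 to 1.66) for Gpi1, 1.10 for Pfkl and 1.08 for Pfkp. Vhl, at 22.4 against 55.1 CPM, and Arnt, at 24.8 against 51.3 CPM, were the other lower genes, by 2.46-fold and 2.07-fold. Hif1a stood at 243 against 227 CPM, a ratio of 1.07 (0.91 to 1.27). Slc16a3 had 41 UMIs in the rich clusters and none in the poor one. Its ratio is 3.52 when 3 counts stand for none, and the exact interval of the ratio starts at 2.74. The sum of its UMIs is under the 50 required for a call. Without the NK-like cluster of highest mitosis genes the Hk2 ratio was 0.53, short of the limit, and with the ribosomal protein total the Ldha and Aldoa ratios were 1.89 and 1.81. Of the other hypoxia-inducible genes, 2 of 15 were higher (Fam162a, 2.47-fold, and Ero1l, 2.02-fold) and 5 were lower, Vegfa the most, at 62.1 against 483 CPM.

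**Figure D4:**
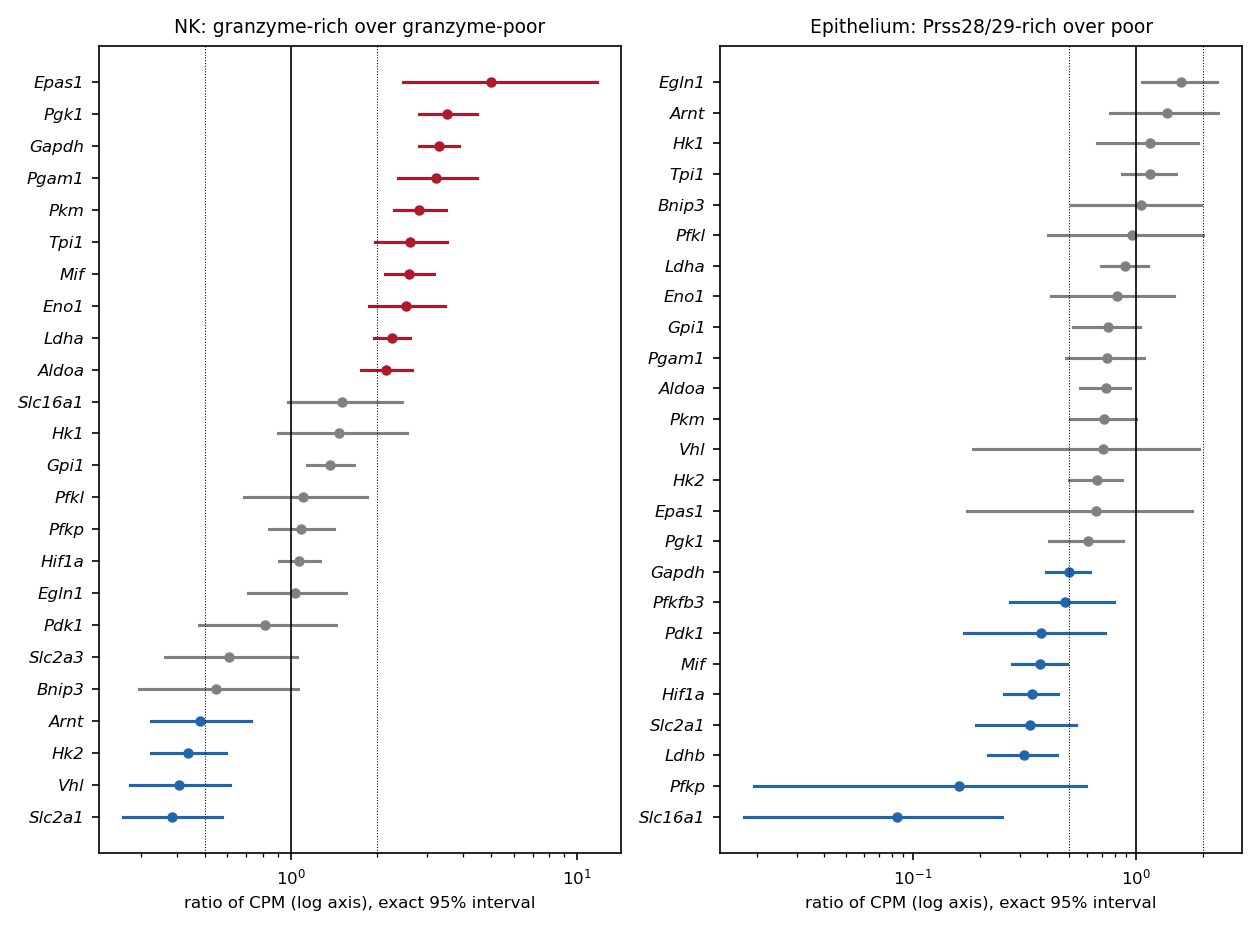
Ratio of CPM on a log axis, with exact 95% intervals, for each of the 32 genes with at least 50 UMIs over both sides, between granzyme-rich and granzyme-poor NK-like clusters (left, 24 genes) and between Prss28- and Prss29-rich and -poor epithelium-like clusters (right, 25 genes). Red marks higher, blue lower and grey neither, the solid line is a ratio of 1 and the dotted lines are 2-fold, and in NK-like cells the lower steps are red while Slc2a1 and Hk2 are blue.

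Depth and state differed between the NK-like clusters as well. The rich clusters had a median of 19034 UMIs per cell and the poor one 4058. Mitosis genes summed to 1127 against 108 CPM, all 10 of them higher. The immediate early list summed to 1136 against 6336 CPM, all 11 lower. Within that list the heat shock genes Hspa1a and Hspa1b stood at 131 and 251 CPM against 509 and 1325 CPM. Malat1 stood at 9163 against 30888 CPM. Thinned to 2000 UMIs, with 3 and 47 shallower cells left out, the median cell had 0.300% of its UMIs from the 17 enzymes in the rich clusters and 0.100% in the poor one, and unthinned 0.273% and 0.136% in the same cells. At the thinned depth 1 UMI is 0.05% of a cell, so the thinned medians are coarse and do not show a wider gap. The part of depth and state in the difference was not tested.

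Among epithelium-like cells the cluster rich in the secreted proteases Prss28 and Prss29 (54 cells), known from uterine glands, had none of 25 genes higher and 9 lower than the other epithelium-like clusters, against 7.67% and 14.1% of all genes. Slc16a1 stood at 6.30 against 74.3 CPM (11.8-fold lower), Pfkp at 4.20 against 26.1 (6.22-fold lower), Ldhb at 71.4 against 227 (3.18-fold lower, 2.26 to 4.61), Slc2a1 at 35.7 against 107 (3.01-fold lower, 1.86 to 5.20) and Hif1a at 118 against 346 CPM (2.94-fold lower, 2.25 to 3.91). Mif, Pdk1, Pfkfb3 and Gapdh were lower by 2.01-fold to 2.69-fold. Slc2a3 ran against this, with 16 UMIs (33.6 CPM) against 4 UMIs (0.864 CPM), too few for a call, and made up 48.5% (30.8 to 66.5) of the pair with Slc2a1 against 0.8% (0.2 to 2.0). Car12, a carbonic anhydrase gene induced by hypoxia, stood at 729 against 9.29 CPM, while 5 of 18 other hypoxia-inducible genes were lower. Prss28 and Prss29 together took 110392 CPM of the rich cluster, and their part in these values was not tested. With ribosomal protein UMIs as the total 5 genes were lower, 1 was higher and the enzyme ratio was 0.914 in place of 0.666. The share over all genes is not given for that total.

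Phagocyte-like clusters split by the complement genes C1qa, C1qb and C1qc at their widest gap on a log2 scale, between sums of 0 and 263 CPM, which left 247 cells on the rich and 22 on the poor side. The 22 cells were led by Xcr1, Clec9a, Itgae and Wdfy4, genes known from type 1 dendritic cells, and 165 of the 247 cells belong to the cluster of 263 CPM. Of 15 genes 1 was higher on the rich side and 2 were lower, against 22.2% and 5.89% of all genes. Slc16a3 was the higher gene, with 59 UMIs against 1. Ldha stood at 189 against 459 CPM and Pfkp at 91.0 against 199 CPM. Slc16a3 did not follow C1q within the rich side. It stood at 99.2 CPM (72.6 to 132) in the cluster whose C1q sum was 263 CPM. In the cluster whose C1q sum was 2908 CPM it stood at 23.3 CPM (12.4 to 39.8). The former was led by Ly6c2, a monocyte gene, and by S100a9 and S100a8, which belong to the neutrophil marker set. Whether that cluster is a mixture was not tested.

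The unnamed cluster of 35 cells had the highest enzyme level of all, 5013 CPM (4482 to 5591). Its leading genes were Igf2bp1, H19, Fgf15, Hand1 and Lin28a, which are known from the early conceptus. Ldha stood at 962 CPM, Pgk1 at 916, Pkm and Mif at 636 each and Slc2a1 at 279 CPM (166 to 442), the last close to decidual-like stroma, and Ldhb was at 0, which allows up to 46.6 CPM. The deepest cell gave 25.2% of the cluster's UMIs, and without it the enzymes stood at 4629 CPM. The 8 cells with a UMI of H19, Igf2, Fgf15, Lin28a or Hand1 had 7218 CPM and the others 4534 CPM. The cluster also carried NK markers at 4377 CPM, and its median depth was 1279 UMIs, and whether it is a mixture was not tested. Its existence depends on the clustering. At resolution 0.5 no cluster stayed unnamed, and NK-like cells numbered 348 against 314 here. At resolution 2, 257 cells stayed unnamed, with 256 NK-like and 105 phagocyte-like cells, the latter against 269 here.

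Across the 21 clusters the enzyme level ran against Malat1 and with ribosomal protein and mitosis genes. Spearman's rho over the 21 clusters was -0.78 with Malat1, 0.75 with the ribosomal protein share and 0.75 with mitosis genes, as descriptions of clusters that share 1 library and whose CPM share a total. Malat1 was lowest in the unnamed cluster, at 3616 CPM, and highest in the poor decidual-like cluster, while the enzymes were lowest in undifferentiated-like cluster 4, at 522 CPM. Which part of the enzyme levels goes with the share of nuclear RNA in a cell was not tested.

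**Figure D5:**
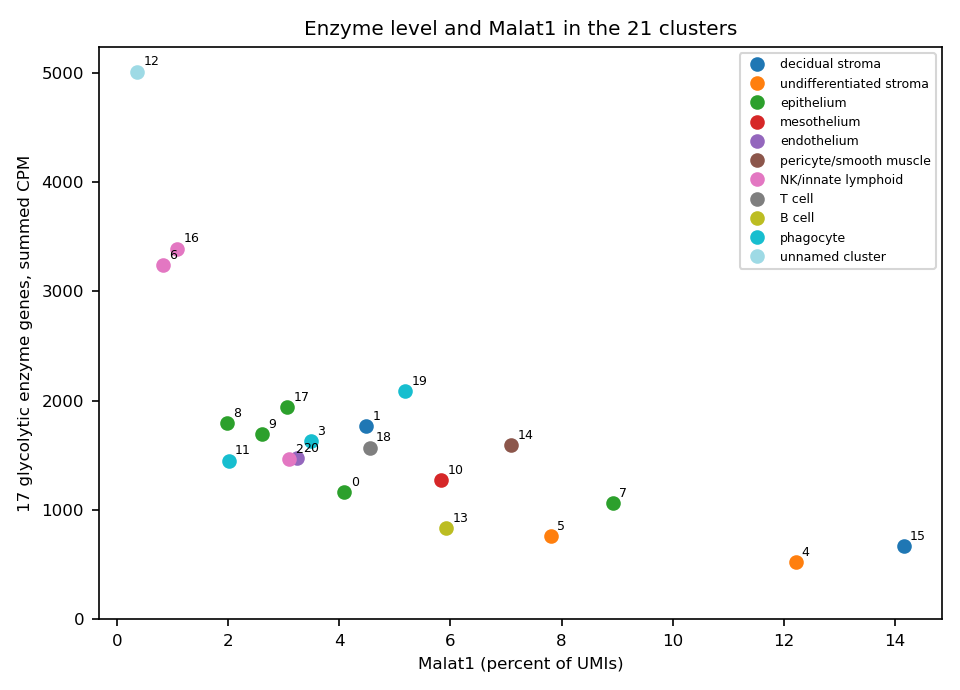
Summed CPM of the 17 enzyme genes against Malat1, as a percent of UMIs, with 1 numbered point per cluster coloured by class. The unnamed cluster (12) and the granzyme-rich NK-like clusters (6 and 16) lie at the upper left, and the undifferentiated-like cluster 4 and the poor decidual-like cluster 15 at the lower right.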

How the data were processed

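The authors deposited a matrix of UMI counts, 1 value for each gene in each barcode. Per the file headers it came from Cell Ranger 4.0.0, and per the submitters' processing notes the genome was mm10. The handling of reads that match several genes is unstated in the labels and headers, so genes with near-identical copies, such as Gapdh, Aldoa and Eno1, are uncertain to that extent (the copy Eno1b had 69 UMIs). No deposited barcode had fewer than 500 UMIs. Of the 3 samples, the library whose files were at hand was used. 2 Aldoa features were summed, 1 of them with 0 UMIs.

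Barcodes with at least 500 genes and at most 20% mitochondrial UMIs were kept (1825 of 2775), and Scrublet marked 13 (0.712%) as doublets, which were removed, so doublets may remain. Clustering (scanpy 1.11.5) used 2000 variable genes without the 32 genes and the other pathway lists, 30 components, 15 neighbours and Leiden resolution 1. A cluster was named by the highest mean score over marker sets (117 markers in 14 sets). Clusters best matched by either stromal set were then called decidual or undifferentiated by scores relative to the stromal clusters alone. A cluster stayed unnamed with fewer than 3 detected markers, or when shallow with none of its markers among its 10 leading genes. It also stayed unnamed when those genes held several markers of another set, more than of its own. Names may differ from the authors' own.

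Counts were summed per class or cluster. Sums have exact Poisson, shares Clopper-Pearson and ratios exact conditional binomial 95% intervals. A gene was called at 50 UMIs over both sides, 2-fold and an interval excluding 1. Clusters of a class were split at the widest gap, in log2 CPM, of the named markers. The members, lists and splits were chosen with earlier results of these data known. Named are the members called (of more than 5 in a direction, the 5 widest in full), a preset list in the class levels, and up to 2 genes of each other list and direction. The split of the decidual-like clusters into separate comparisons, the ribosomal total and the unnamed cluster were added after the data were seen. Coordinates are 1-based, on GRCm38.p6.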

Additional observations from a re-analysis of the deposited data

Results flagged for a closer look

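The gene and mitochondrial filters and the doublet caller removed 963 barcodes, which enter no comparison of the report (the 13 doublets among them return in 1 alternative). They still carried the 17 enzymes at 933 CPM (894 to 974), where the kept cells had 1865 CPM. 711 of the removed barcodes were over the mitochondrial limit, and they had 896 CPM (855 to 939) at a median mitochondrial share of 28.3%. They are listed because signal was present in barcodes outside the comparisons, and its source was not tested.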

How the results depend on the processing

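Of the recomputed counts and enzyme ratios of the comparisons, 115 stayed within 1.5 times or the counting interval, 46 moved and 1 turned direction. With 1 library there is no replicate to leave out. No paired analysis was possible because the labels give no shared replicate numbers. The cause of each change was not tested. Shares over all genes are given for the decidual-like clusters taken alone, and for no other alternative. Elsewhere the counts of called genes thus have no background. The alternatives by ribosomal or Malat1 total and by cluster were chosen after seeing the data.

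Decidual- against undifferentiated-like stroma had 8 genes higher, 0 lower and an enzyme ratio of 2.01. The poor cluster alone gave 2 higher, 1 lower and a ratio of 0.952, with Aldoa at 0.778, Tpi1 at 0.725 and Pgk1 at 0.759 turned, and the rich cluster alone gave 2.51. A 1.5-fold limit gave 13 higher and 3 lower. The mean of cells gave 1 lower and a ratio of 1.86, the ribosomal total 1 lower and 1.72, and leaving out the undifferentiated-like cluster of highest Malat1 1 lower and 1.87. A minimum of 20 UMIs and no minimum gave 1 lower each, and a 10% mitochondrial limit a ratio of 2.28. Clustering at resolution 2 named 438 stromal cells decidual-like and gave 5 higher and a ratio of 1.48, and with doublets kept (415 cells) 6 genes were higher and the ratio was 1.56, with Aldoa, Tpi1, Gapdh and Hif1a under 2-fold (1.37 to 1.99). Resolution 2 also moved the enzyme ratio over undifferentiated-like stroma from 4.15 to 3.89 for NK-like and from 2.40 to 2.21 for epithelium-like cells.

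Between decidual-like clusters (10 higher, 0 lower, ratio 2.64) the ribosomal total gave 5 higher, 5 lower and 1.47, the total without mitochondrial genes and Malat1 1 lower and 2.24, the 10% limit 1 lower and 2.28, and the 1.5-fold limit 2 lower. Between epithelium-like clusters (0 higher, 9 lower, ratio 0.666) the mean of cells, 20 UMIs, no minimum and 1.5-fold gave 1 higher each, and the ribosomal total 1 higher, 5 lower and 0.914. The mean of cells turned Pfkfb3 to 1.19. Between NK-like clusters (ratio 2.25) the mean of cells gave 2.08 and the ribosomal total 1.89.

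Between phagocyte-like clusters (1 higher, 2 lower, ratio 0.734) the mean of cells, the 10% limit and 1.5-fold gave 2 higher each, 20 UMIs and no minimum 3 each, and the ribosomal total 3 higher, 0 lower and 0.999. The cluster of highest C1q against the others gave 0 higher and 4 lower, with Slc16a3 turned to 0.342. Classes of few cells limit what depth can show.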
